A study of Homo sapiens with 20 samples.

Results

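Keratin genes were followed through 5 human cancer cell lines treated with G007-LK or vehicle. The members were all genes of the expression table whose symbol is KRT followed by a number and at most 1 letter, which gave 55 genes of the 21201 symbols. Of these, 27 encode type I keratins, 26 encode type II keratins, and KRT42P and KRT222 were placed in neither type. Keratin-associated proteins (KRTAP) and host gene transcripts with other suffixes were not members.

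Keratins are the intermediate filament proteins of epithelial cells. A filament is built from obligate pairs of an acidic type I and a basic type II chain, so that simple epithelia carry KRT8 with KRT18 or KRT19, basal cells of stratified epithelia carry KRT5 with KRT14 or KRT15, and mucosal surfaces such as the oesophagus carry KRT4 with KRT13. KRT6A, KRT16 and KRT17 are the keratins of activated or stressed epithelium, and a separate set builds the hard filaments of hair.

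G007-LK is a small-molecule inhibitor of the tankyrases TNKS1 and TNKS2. The lines sequenced for their polyadenylated RNA were COLO 320DM (colorectal adenocarcinoma), UO-31 (renal cell carcinoma), OVCAR-4 (high-grade serous ovarian carcinoma) and ABC-1 (lung adenocarcinoma), which the study selected as sensitive to G007-LK, and RKO (colorectal carcinoma), its insensitive control line. Each line was exposed for 24 h to 1 µM G007-LK or to 0.01% DMSO in 2 biological replicates, giving 20 libraries. Every tissue is thus represented by a single established line, or 2 for colon, and tissue and line cannot be told apart.

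The values are RPKM, read numbers scaled to gene length and to sequencing depth. The read total of each library is unknown, but the spacing of the low values gave relative depths of 0.855 to 1.11 within a line and of 0.406 to 1 across all libraries, lowest in OVCAR-4, and the number of reads behind a value for 38 keratins. Marker genes fitted the labels only in part. UO-31 had 4 of 5 kidney markers at a mean of 1 RPKM or more, but OVCAR-4 had 3 of these with a higher sum (167 to 200 RPKM per library in OVCAR-4 and 104 to 132 in UO-31). OVCAR-4 had 4 of 5 serous ovarian markers, but ABC-1 had 3 with a higher sum (143 to 186 in ABC-1 and 120 to 135 in OVCAR-4). COLO 320DM had 3 and RKO 2 of 6 colon markers. In ABC-1 the 4 lung adenocarcinoma markers that the table holds summed to between 0.217 and 0.342 RPKM per library, so its lung label had no support from them. UO-31 also carried all 6 mesenchymal markers at 1 RPKM or more.

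Keratin expression separated the lines. On averages over the 4 libraries of a line, OVCAR-4 carried 16 keratins at 1 RPKM or more, ABC-1 carried 12, COLO 320DM had 11, UO-31 had 9 and RKO had 3. The 3 genes above that level in every line were KRT8, KRT18 and KRT10. Over all lines 22 of the 55 keratins reached that level, 33 stayed below 1 RPKM everywhere and 4 of those were at 0 in every library. All keratins together made up between 0.933% and 1.27% of the summed RPKM of ABC-1, OVCAR-4 and UO-31 libraries, against 0.0229% to 0.0493% in RKO and COLO 320DM libraries.

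**Figure D1:**
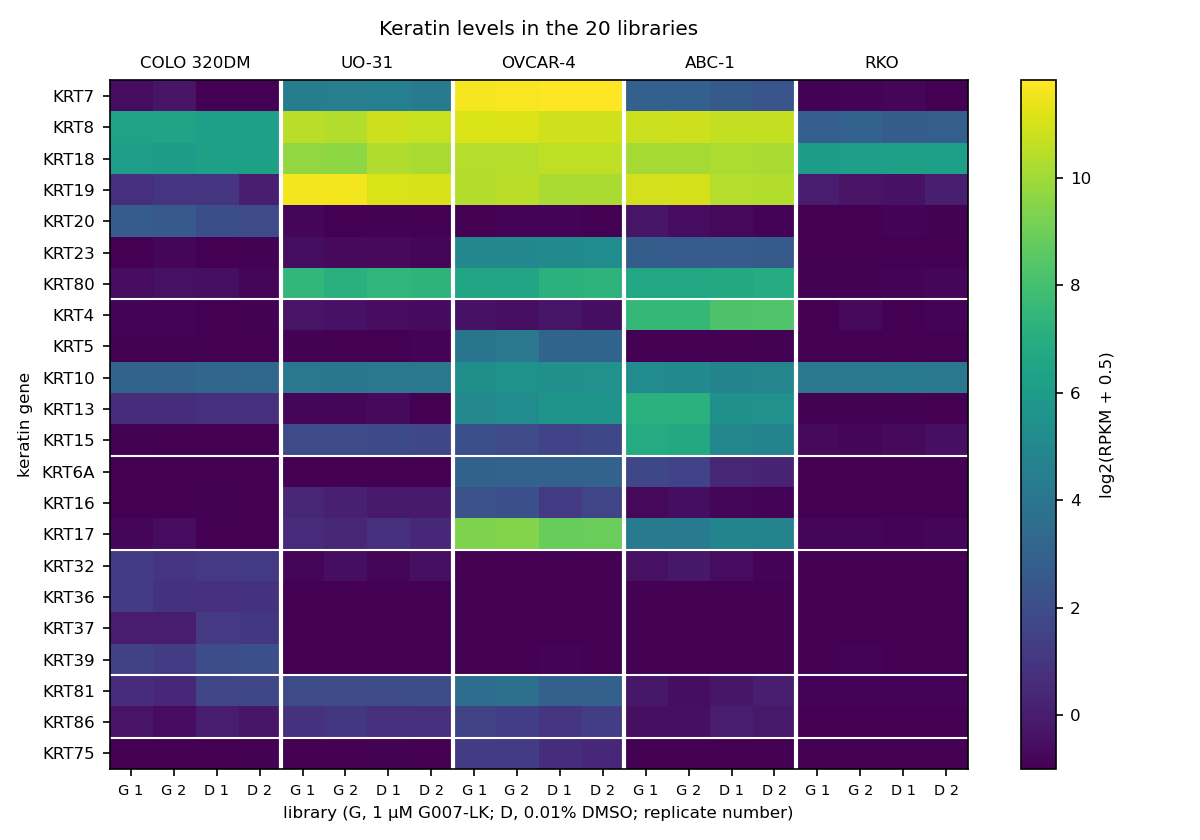
Level of the 22 keratins that averaged at least 1 RPKM in some line, as log2(RPKM + 0.5), in each of the 20 libraries. Rows are genes, grouped by white lines into simple epithelial, basal and stratified, stress, type I hair, type II hair and inner root sheath keratins, and columns are libraries, with G007-LK left of DMSO in each line. KRT8 and KRT18 are present in all columns, KRT7 is brightest in OVCAR-4, KRT4 stands out in ABC-1 and the type I hair keratins in COLO 320DM.

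With DMSO, all 21 keratins that passed the filter on low values differed among the 5 lines by limma's F test at an adjusted p under 0.05, where 99.3% of all genes tested did, so the count sets the keratins apart from nothing. KRT8 was highest in OVCAR-4 at 1909 RPKM, followed by UO-31 (1759), ABC-1 (1585), COLO 320DM (74.0) and RKO (6.60), and each neighbour in that order differed (limma, adjusted p at most 0.026). Its partner KRT18 stood at 1554 RPKM for OVCAR-4, 1213 for UO-31, 1184 for ABC-1, 76.2 for COLO 320DM and 76.0 for RKO. For KRT18 the differences between UO-31 and ABC-1 and between COLO 320DM and RKO were within the spread (adjusted p 0.474 and 0.942). RPKM summed over all genes was 895010 and 909187 in the OVCAR-4 DMSO libraries, against 514173 and 498181 in UO-31 and 471672 and 494250 in ABC-1. Levels were not scaled to these sums, and the order of OVCAR-4, UO-31 and ABC-1 for KRT8 and KRT18 depends on that choice.

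KRT19, a type I keratin that has almost no tail domain, was abundant in the same 3 lines, at 2138 RPKM for UO-31, 1308 for ABC-1 and 1150 for OVCAR-4. The replicates of these 3 lines did not overlap, with SDs of 96.5, 35.9 and 4.73 RPKM (n = 2 each). The limma contrasts of UO-31 with ABC-1 (adjusted p 0.0734) and of ABC-1 with OVCAR-4 (0.586) pool the spread over all 5 lines, including the lines near 0, where the SD was 0.654 for COLO 320DM and 0.208 for RKO. It was at 1.02 RPKM in COLO 320DM and 0.405 in RKO. KRT7, the type II keratin of ducts and many glandular epithelia, was the highest keratin of OVCAR-4 at 3549 RPKM, but stood at 21.1 in UO-31, 5.20 in ABC-1, 0.0299 in RKO and 0 in COLO 320DM. KRT20, a keratin of the intestinal surface epithelium, averaged 3.57 RPKM in COLO 320DM with DMSO and lay below 0.04 RPKM in each RKO library. KRT4 was highest in ABC-1 at 304 RPKM, against 0.264 RPKM in OVCAR-4, the next line (log2 difference 8.64, limma adjusted p 3.88e-14).

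The balance of partners also differed. Reads per kilobase of KRT18 and KRT8 were of the same order in 4 lines, whereas in RKO KRT18 exceeded KRT8 by 12.03 and 11.02 times in the DMSO libraries. Summed over the family, the ratio of type I to type II RPKM in DMSO libraries was highest in RKO at 12.9 and 12.1 and lowest in OVCAR-4 at 0.592 and 0.581, where KRT7 takes the largest share. It was 1.73 and 1.72 for UO-31, 1.32 and 1.28 for ABC-1, and 1.31 and 1.29 for COLO 320DM. These are ratios of mRNA, and protein was not examined here.

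The KRT18 to KRT8 ratio was lower with G007-LK than with DMSO in every line, without overlap of the replicates. It was 0.620 and 0.602 in OVCAR-4 with G007-LK, against 0.820 and 0.809 with DMSO. In ABC-1 it was 0.606 and 0.598 with G007-LK, against 0.747 and 0.747 with DMSO. In UO-31 it was 0.589 and 0.608 with G007-LK, against 0.696 and 0.683 with DMSO. COLO 320DM gave 0.830 and 0.739 with G007-LK, against 1.04 and 1.02 with DMSO. RKO gave 10.4 and 9.16 with G007-LK, against 12.03 and 11.02 with DMSO, the same direction in the insensitive line. This ratio was singled out after its values were seen and is given without a test. As both genes lie in the same library, the ratio does not depend on how libraries are scaled. The annotated KRT8 and KRT18 gene models overlap on opposite strands, and how reads of the overlap were counted is not known.

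**Figure D2:**
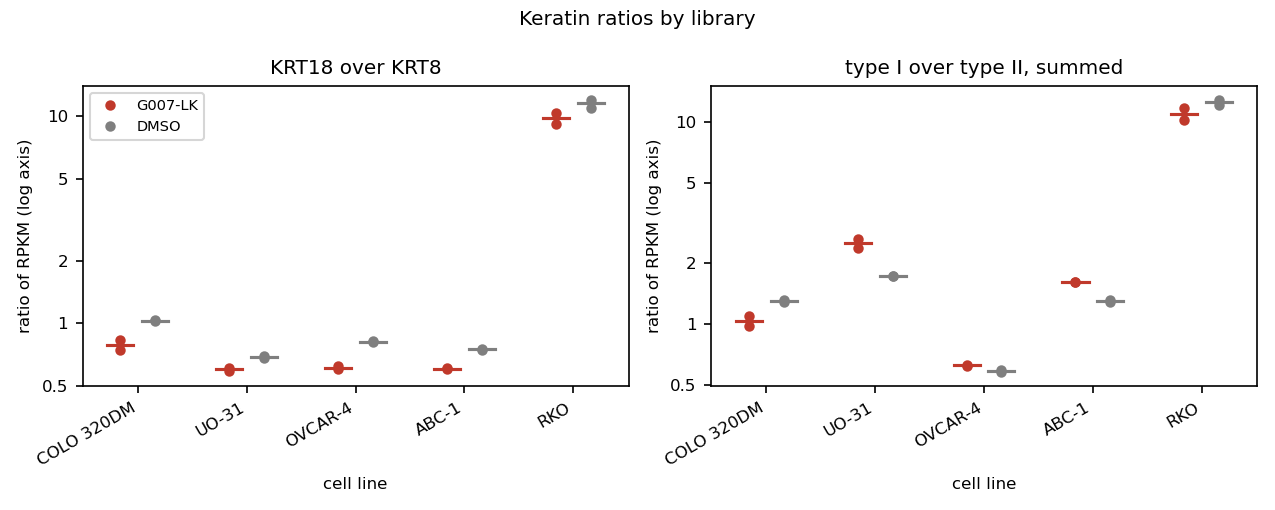
Ratio of KRT18 to KRT8 RPKM (left) and of the summed type I to the summed type II keratin RPKM (right) in each library, on log axes. Points are libraries and bars the mean of 2, with G007-LK (red) left of DMSO (grey) in each line. On the left the G007-LK points lie below the DMSO points in all 5 lines. On the right they lie below in both colorectal lines and above in the other 3.

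The summed type I to type II ratio moved in both directions. With G007-LK UO-31 had 2.38 and 2.64, ABC-1 had 1.62 and 1.62 and OVCAR-4 had 0.623 and 0.630, each pair above the DMSO values of its line. COLO 320DM had 1.10 and 0.976 with G007-LK and RKO had 11.6 and 10.2, each pair below the DMSO values. Without KRT8 and KRT18 the COLO 320DM ratio turned, to a log2 change of 1.01, against -0.32 with them.

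Response to G007-LK was tested in each line on log2(RPKM + 0.5) with limma among genes of mean RPKM 1 or more, with Benjamini-Hochberg adjustment over all genes tested and a threshold of 0.05. Fold changes are on that scale, which understates those of low genes, and n = 2 in every group. Limma draws the spread of a gene partly from all genes, so very small p-values do not rest on the replicates of that gene alone. In these bulk libraries a change per cell and a change in the share of cells that carry a gene cannot be told apart. In ABC-1, 11 of the 12 keratins tested changed, 7 higher and 4 lower, where 57.9% of all 10910 genes tested changed, 16.6% higher and 41.2% lower. The median log2 change was 0.26 over the keratins and -0.14 over all genes. Since that shift of all genes exceeds 0.1, values after rescaling each library to its median ratio are also given. Under rescaling 8 keratins were higher and 2 lower, where 28.6% of all genes were higher and 34.7% lower.

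The largest rises in ABC-1 were in keratins of stratified epithelium, though not in all of them. KRT5 averaged 0.00776 RPKM with G007-LK and 0.00922 RPKM with DMSO. KRT14 averaged 0.0552 RPKM with G007-LK and 0.0872 RPKM with DMSO. KRT15, a basal keratin (chr17:39669997-39678781, minus strand, GRCh37), had 117.8 and 107.1 RPKM with G007-LK, against 28.4 and 26.0 RPKM with DMSO. KRT13, a type I keratin of oral and oesophageal mucosa (chr17:39657233-39661957), had 143.4 and 142.5 RPKM with G007-LK, against 42.5 and 43.8 RPKM with DMSO. The groups were far apart for both genes, with log2 changes of 2.03 ± 0.07 (SE, adjusted p 1.3e-154) and 1.72 ± 0.07 (adjusted p 3.16e-129) by limma, or 2.15 and 1.84 after rescaling. The size of these p-values depended on the fit. Limma's adjusted p was 1.35e-10 and 2.1e-11 after rescaling, and 1.1e-06 for both genes without a filter on low values. KRT6A, a type II keratin induced in wounded epidermis, was low and had 183 and 171 reads with G007-LK, against 48 and 38 reads with DMSO (log2 change 1.39 ± 0.13, limma adjusted p 1.24e-23). It reached the mean of 1 RPKM only through its G007-LK libraries, at 2.70 RPKM against 0.724 RPKM with DMSO. Without a filter its adjusted p by limma was 3.89e-05. Its transcript shares 95.42% of bases with that of KRT6B over 1966 bases and 95.36% with that of KRT6C over 2304 bases. KRT6B had 0 reads in all 4 ABC-1 libraries and KRT6C had 1 read in 1 of them.

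KRT4, the usual type II partner of KRT13 in mucosa, went the other way. It had 187.0 and 186.8 RPKM with G007-LK, against 295 and 313 RPKM with DMSO, a log2 change of -0.70 ± 0.06 (limma, adjusted p 1.44e-33) and -0.58 after rescaling. KRT4 remained the higher of the pair, though by less with G007-LK. KRT17, another stress keratin, fell as well, with 18.7 and 18.4 RPKM with G007-LK, against 27.0 and 25.9 RPKM with DMSO (log2 change -0.50 ± 0.09, limma adjusted p 1.24e-07), so that it and KRT6A moved in opposite directions.

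Among simple epithelial keratins of ABC-1, KRT19 rose to 1973 and 2030 RPKM with G007-LK, against 1334 and 1283 RPKM with DMSO. Its log2 change was 0.61 ± 0.04 (limma, adjusted p 5.13e-53), the largest gain in RPKM of any keratin in the line. KRT7 (log2 change 0.44), KRT10, a keratin of suprabasal epidermis (0.34), and KRT8 (0.19) were also higher, at limma adjusted p of at most 0.000468. KRT10 lost its call without G007-LK replicate 1 (adjusted p 0.0605). KRT80 (-0.17) and KRT18 (-0.12) were lower as measured, but after rescaling their log2 changes were -0.05 and 0.00063 and neither call remained. Leaving out G007-LK replicate 1 or 2 also ended the calls of KRT80 (adjusted p 0.204 and 0.254) and KRT18 (0.194 and 0.165), and leaving out DMSO replicate 2 that of KRT80 (0.145).

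KRT13, KRT15 and KRT19 are consecutive coding genes of the type I cluster on chromosome 17. All lie on the minus strand, with KRT15 1087 bases from KRT19 and KRT13 8039 bases from KRT15 in the GRCh37 annotation. Of the genes beside them, KRT36 was at 0 in all ABC-1 libraries and KRT9 and KRT14 were below 1 RPKM, so none was tested, and KRT17 further along fell. In OVCAR-4 KRT13 fell, while KRT19 rose and KRT15 was called higher. Neither rise held in every fit: KRT15 missed the threshold with either replicate 1 left out (limma adjusted p 0.249 and 0.256), and KRT19 missed it in the fit of all 20 libraries (0.441).

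**Figure D3:**
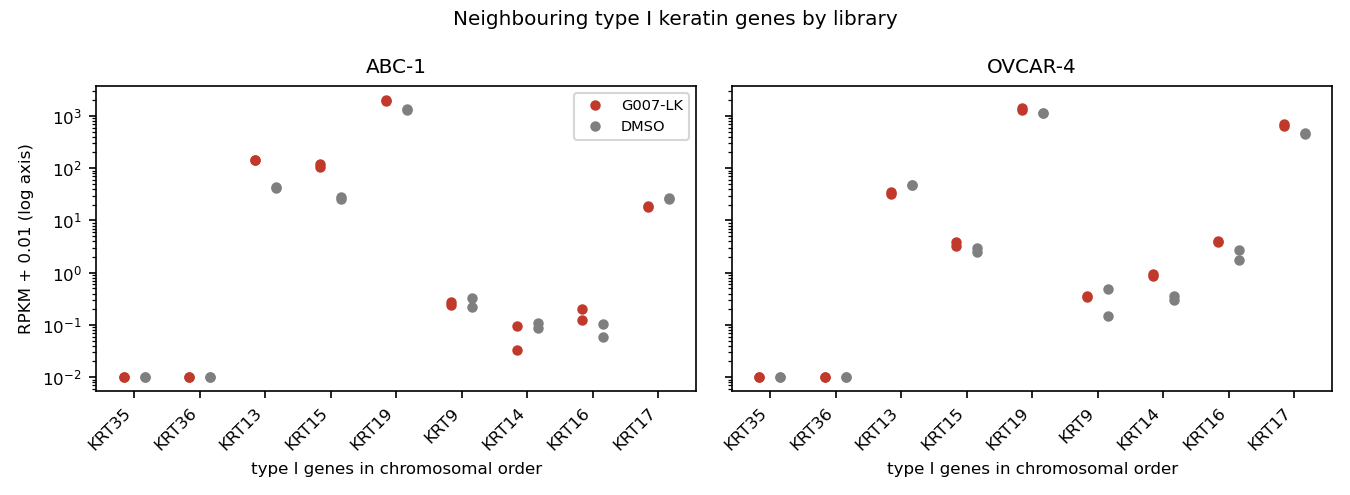
RPKM + 0.01 on a log axis of 9 neighbouring type I keratin genes, in chromosomal order, in ABC-1 (left) and OVCAR-4 (right). Points are libraries, with G007-LK (red) left of DMSO (grey). In ABC-1 the G007-LK points of KRT13, KRT15 and KRT19 lie above the DMSO points and those of KRT17 below, whereas in OVCAR-4 KRT13 lies below and KRT17 above.

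In OVCAR-4, 14 of 16 keratins tested changed, 9 higher and 5 lower, where 51.5% of all 12425 genes tested changed, 12.6% higher and 39% lower. The median log2 change was 0.22 over the keratins and -0.11 over all genes. After rescaling, 9 keratins were higher and 3 lower, where 23% of all genes were higher and 24.4% lower. The 9 that rose were KRT5, KRT15, KRT16, KRT17, KRT75, KRT81, KRT86, KRT8 and KRT19, and the 5 that fell were KRT7, KRT13, KRT18, KRT23 and KRT80. The summed RPKM of the 16 basal and stratified keratins was 98.9 ± 5.49 with G007-LK and 104.5 ± 1.67 with DMSO, and that of the 5 stress keratins was 680 ± 36.1 with G007-LK and 474 ± 8.04 with DMSO (SD, n = 2 each).

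KRT5, the defining type II keratin of basal cells (chr12:52908359-52914314, minus strand, GRCh37), had 15.5 and 16.2 RPKM with G007-LK, against 8.26 and 8.11 RPKM with DMSO. Its log2 change was 0.91 ± 0.06 (limma, adjusted p 4.84e-07). KRT17, the most abundant stress keratin, had 643 and 694 RPKM with G007-LK, against 459 and 469 RPKM with DMSO (log2 change 0.53 ± 0.04, limma adjusted p 8.04e-07). The replicates did not overlap for either gene, and KRT17 went in the direction opposite to that in ABC-1.

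Less abundant members rose too. KRT16, another stress keratin, had 94 and 83 reads with G007-LK, against 38 and 55 reads with DMSO (log2 change 0.73 ± 0.15, limma adjusted p 0.00214). Its transcript shares 83.05% of bases over 997 bases with that of the far more abundant KRT17. Whether reads of KRT17 were counted for KRT16 was not tested. KRT75, a keratin of the companion layer of the hair follicle, had 54 and 49 reads with G007-LK, against 29 and 21 reads with DMSO (0.70 ± 0.15, limma adjusted p 0.0018). KRT75 reached the mean of 1 RPKM only through its G007-LK libraries, at 1.86 RPKM against 0.958 RPKM with DMSO. Without a filter its adjusted p by limma was 0.00853. KRT81, a type II hair keratin, had 291 and 308 reads with G007-LK, against 171 and 165 reads with DMSO (0.71 ± 0.08, limma adjusted p 1.17e-05). All 3 had every G007-LK library above every DMSO library.

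Smaller rises in OVCAR-4 were those of KRT86 (log2 change 0.40), KRT15 (0.32), KRT19 (0.25) and KRT8 (0.20). The call of KRT86 was lost without G007-LK replicate 1 (limma adjusted p 0.216) or DMSO replicate 1 (0.32) and without a filter (0.11), as was that of KRT15 (0.249, 0.256 and 0.0962). KRT81 and KRT86 share up to 96.6% of bases over 1325 bases of transcript, and the KRT86 gene model spans KRT81 on the other strand, so reads of the pair may have been divided in an unknown way.

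KRT80, a type II keratin found in many epithelia, fell most in OVCAR-4. It had 93.8 and 96.8 RPKM with G007-LK, against 145 and 155 RPKM with DMSO, a log2 change of -0.65 ± 0.04 (limma, adjusted p 2.53e-07) and -0.55 after rescaling. KRT13 had 31.7 and 35.8 RPKM with G007-LK, against 48.2 and 48.5 RPKM with DMSO (log2 change -0.51 ± 0.06, limma adjusted p 1.94e-05), opposite in sign to ABC-1. KRT18 (-0.22), KRT23 (-0.21) and KRT7 (-0.13) fell by less. After rescaling KRT18 stood at -0.11 and kept its call, while KRT23 (-0.11) and KRT7 (-0.03) lost theirs, and both also lost it without DMSO replicate 2 (limma adjusted p 0.0566 for KRT23 and 0.0648 for KRT7) and in the fit of all 20 libraries (0.0846 and 0.37). KRT6A and KRT10 did not pass the test, with log2 changes of -0.05 and -0.02.

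**Figure D4:**
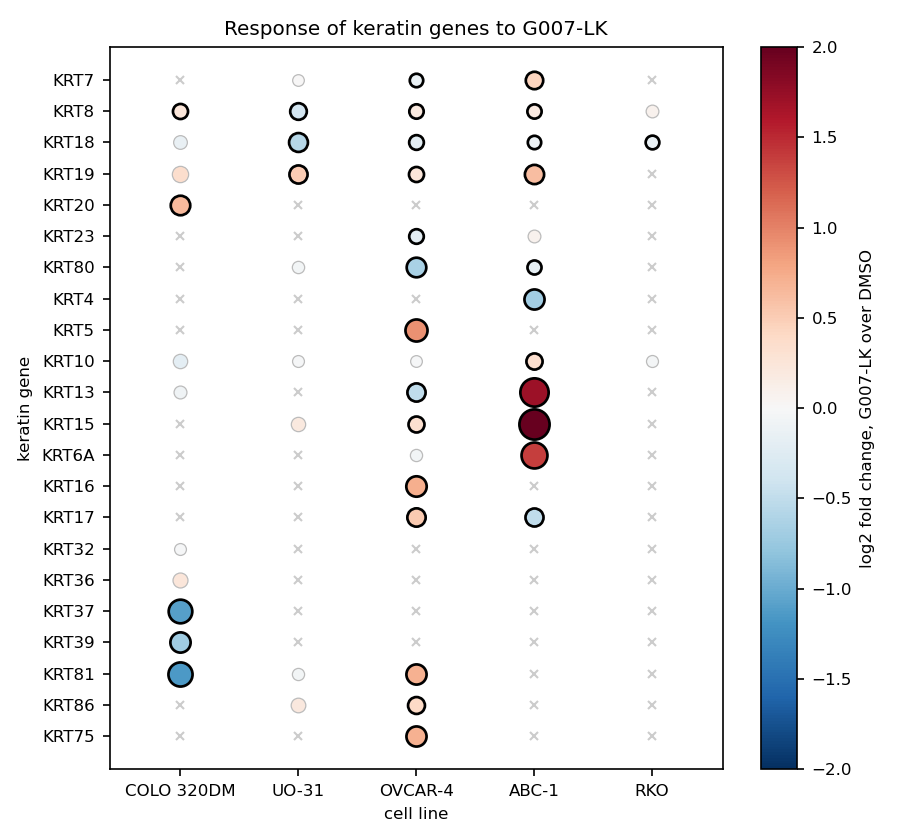
Log2 fold change, G007-LK over DMSO, on the log2(RPKM + 0.5) scale, of the 22 keratins in the 5 lines. Colour and size of a point give the change, a black outline marks an adjusted p under 0.05 by limma and a cross a gene below a mean of 1 RPKM in that line. KRT13 and KRT15 are the deepest red, in ABC-1, and KRT37 and KRT81 the deepest blue, in COLO 320DM.

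In UO-31, 3 of 9 keratins tested changed, 1 higher and 2 lower, where 13.4% of all 11851 genes tested changed, 4.79% higher and 8.63% lower. The 3 were the 3 most abundant keratins of the line. The median log2 change was -0.03 over the keratins and -0.04 over all genes.

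KRT19 had 3029 and 3050 RPKM in UO-31 with G007-LK, against 2206 and 2069 RPKM with DMSO, a log2 change of 0.51 ± 0.06 (limma, adjusted p 3.59e-14). KRT18, the other abundant type I keratin, fell to 839 and 787 RPKM with G007-LK, against 1266 and 1161 RPKM with DMSO (log2 change -0.58 ± 0.08, limma adjusted p 1.11e-11). KRT8, the type II partner of both, fell to 1425 and 1293 RPKM with G007-LK, against 1818 and 1700 RPKM with DMSO (-0.37 ± 0.07, limma adjusted p 3.42e-06). KRT19 per KRT18 was thus 3.61 and 3.88 with G007-LK, against 1.74 and 1.78 with DMSO, while the sum of all keratins was 5524 and 5321 RPKM with G007-LK and 5510 and 5139 RPKM with DMSO. After rescaling, the log2 changes were 0.52 for KRT19, -0.57 for KRT18 and -0.36 for KRT8. Limma's adjusted p was then much weaker, at 0.0288, 0.0101 and 0.0489.

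KRT18 and KRT19 kept their calls in UO-31 with any library left out (limma adjusted p at most 0.045 and 0.00217), though KRT19 lost its call in the fit of all 20 libraries (0.0933). KRT8 lost its call without DMSO replicate 1 (adjusted p 0.402) or DMSO replicate 2 (0.0911), and KRT80, at 180.2 and 141.2 RPKM with G007-LK and 169.6 and 161.9 RPKM with DMSO, was called lower only without G007-LK replicate 1 (limma, adjusted p 0.00416). UO-31 G007-LK replicate 2 stood apart, with a median log2 value over all genes 0.285 below that of replicate 1. KRT7, KRT10, KRT15, KRT81 and KRT86 did not pass the test, with log2 changes between -0.05 and 0.22.

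COLO 320DM had few epithelial keratins but a set of low hair keratins. Of 11 keratins tested 5 changed, 2 higher and 3 lower, where 19.3% of all 11279 genes tested changed, 7.7% higher and 11.6% lower. The median log2 change was -0.09 over the keratins and -0.01 over all genes. The 3 that fell, KRT81, KRT37 and KRT39, are all hair keratins, and KRT81 and KRT37 passed the filter only through their DMSO libraries.

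KRT81 had 56 and 48 reads with G007-LK, against 150 and 134 reads with DMSO, which is 1.02 and 0.869 RPKM against 2.66 and 2.77 RPKM. Its log2 change was -1.15 ± 0.14 (limma, adjusted p 2.05e-05). KRT37, a type I hair keratin, had 24 and 26 reads with G007-LK, against 85 and 70 reads with DMSO (-1.09 ± 0.14, limma adjusted p 2.78e-05). KRT39, another type I hair keratin, had 110 and 89 reads with G007-LK, against 175 and 164 reads with DMSO (-0.72 ± 0.15, limma adjusted p 0.00268), a call that was lost without G007-LK replicate 2 (adjusted p 0.23). For all 3 the groups were apart by more than the replicates. KRT37 and KRT81 reached the mean of 1 RPKM only through the DMSO libraries, and KRT37 missed it with either DMSO library left out. Without a filter the adjusted p by limma was weaker, at 0.00466 for KRT81, 0.00429 for KRT37 and 0.0307 for KRT39.

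The other hair keratins of COLO 320DM went in different directions. KRT86 had 18 and 10 reads with G007-LK, against 30 and 19 reads with DMSO, and KRT33A had 3 and 3 reads with G007-LK, against 7 and 9 reads with DMSO. Both were lower without overlap, and neither passed limma's test without a filter (log2 changes -0.34 and -0.33, adjusted p 0.182 and 0.0581). KRT32 had 110 and 85 reads with G007-LK, against 100 and 89 reads with DMSO, and KRT36 had 88 and 64 reads with G007-LK, against 57 and 57 reads with DMSO. KRT38, whose transcript shares 94.7% of bases with KRT37 over 1339 bases, had 78 and 53 reads with G007-LK, against 82 and 65 reads with DMSO. KRT85, a type II hair keratin below the filter and named after its values were seen, had 11 and 14 reads with G007-LK, against 52 and 49 reads with DMSO (limma without a filter, log2 change -0.89, adjusted p 0.0075). KRT31 had 17 and 16 reads with G007-LK, against 14 and 13 reads with DMSO, and KRT35 had 31 and 20 reads with G007-LK, against 16 and 21 reads with DMSO.

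**Figure D5:**
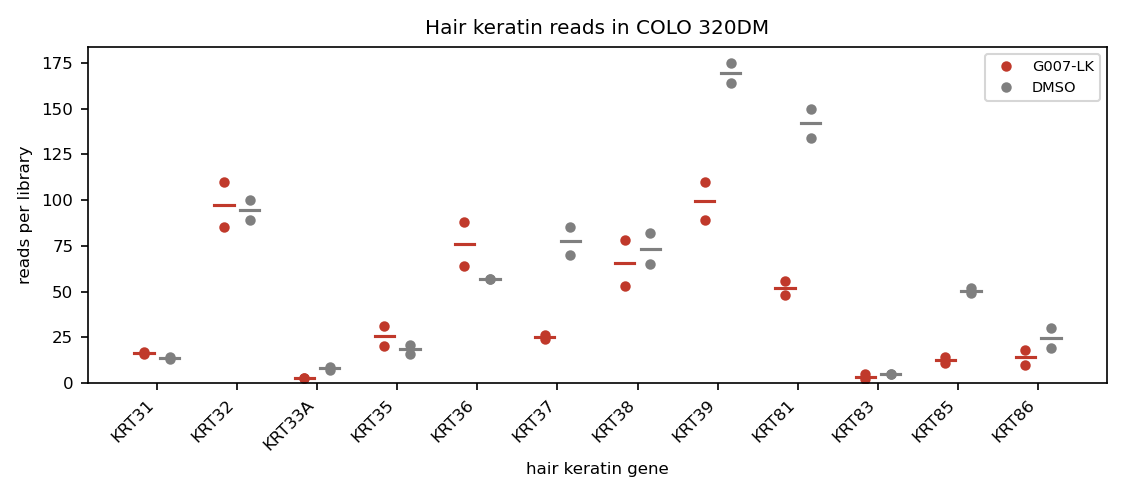
Reads per COLO 320DM library of the 12 hair keratins with at least 5 reads in some library, recovered from the RPKM values. Points are libraries and bars the mean of 2, with G007-LK (red) left of DMSO (grey). KRT33A, KRT37, KRT39, KRT81, KRT85 and KRT86 lie lower with G007-LK than with DMSO, while KRT31, KRT32, KRT35, KRT36 and KRT38 overlap or lie slightly higher.

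TCF/LEF factors, the DNA-binding partners of β-catenin, are known to act at hair keratin promoters, and tankyrase inhibition stabilizes the AXIN proteins that restrain β-catenin. The 250 bases before the start site were searched for 4 motifs. The AP-1 letters TGANTCA on both strands occurred in 0 of 33 keratin promoters and in 6.6% of all promoters. The TEAD letters GGAATG on both strands occurred in 3 of 33 (9.09%) and in 11.9% of all. The TATA box letters TATAAA on the strand of the gene occurred in 17 of 33 (51.5%) and in 7.17% of all. The TCF/LEF letters CTTTGA on both strands occurred in 11.36% of 27305 RefSeq promoters (GRCh38.p14) and in 10 of the 33 keratin promoters of that table, of which 9 were among its 14 hair keratins and 1 among its 19 other keratins. The windows of KRT37, KRT39 and KRT85, which had fewer reads with G007-LK in COLO 320DM, and of KRT38, whose reads overlapped between the groups, are shown to compare them, 5′ to 3′ and with the TCF/LEF letters in capitals on either strand.
KRT37: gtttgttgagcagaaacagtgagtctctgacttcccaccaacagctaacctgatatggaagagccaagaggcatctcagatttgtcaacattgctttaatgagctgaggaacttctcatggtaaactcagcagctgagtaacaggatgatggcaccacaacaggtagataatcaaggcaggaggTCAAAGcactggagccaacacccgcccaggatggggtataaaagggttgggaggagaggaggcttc
KRT38: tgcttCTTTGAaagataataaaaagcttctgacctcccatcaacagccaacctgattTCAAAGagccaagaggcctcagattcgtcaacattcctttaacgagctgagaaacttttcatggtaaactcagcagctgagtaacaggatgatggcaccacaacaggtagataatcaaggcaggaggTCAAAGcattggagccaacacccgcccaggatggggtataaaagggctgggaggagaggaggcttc
KRT39: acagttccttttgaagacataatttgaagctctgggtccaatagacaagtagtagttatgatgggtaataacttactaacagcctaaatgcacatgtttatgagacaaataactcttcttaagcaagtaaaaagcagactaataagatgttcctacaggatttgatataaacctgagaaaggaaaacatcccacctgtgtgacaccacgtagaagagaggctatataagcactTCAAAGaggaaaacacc
KRT85: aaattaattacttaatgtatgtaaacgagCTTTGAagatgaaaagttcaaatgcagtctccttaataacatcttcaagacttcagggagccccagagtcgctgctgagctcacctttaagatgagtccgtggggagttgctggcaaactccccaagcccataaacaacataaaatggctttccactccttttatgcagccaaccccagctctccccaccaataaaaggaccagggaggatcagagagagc
All 4 genes lie on the minus strand. The windows are chr17:41424586-41424835 for KRT37, chr17:41440984-41441233 for KRT38, chr17:40966949-40967198 for KRT39 and chr12:52367482-52367731 for KRT85. The letters begin 66 bases before the start in KRT37, 17 in KRT39 and 221 in KRT85. KRT38 holds them at 245, 193 and 66 bases, and its window has the same base as that of KRT37 at 188 of 250 positions without gaps. KRT37, KRT39 and KRT85 hold the letters, and so do KRT38, KRT32 and KRT35, whose reads overlapped between the groups. The letters also occur in KRT31, which had slightly more reads with G007-LK, and in KRT33A, which had fewer. KRT81 had no entry among the promoters searched. Whether the letters bear on a change in reads was not tested. A match in letters is a description and not a binding site.

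The 2 keratins that rose in COLO 320DM were epithelial. KRT20 had 320 and 284 reads with G007-LK, against 196 and 156 reads with DMSO (log2 change 0.64 ± 0.15, limma adjusted p 0.00495). KRT8 had 86.3 and 89.5 RPKM with G007-LK, against 73.3 and 74.6 RPKM with DMSO (0.25 ± 0.08, limma adjusted p 0.0444). Both calls were lost without G007-LK replicate 1 (adjusted p 0.285 for KRT20 and 0.407 for KRT8) or replicate 2 (0.105 and 0.582), and that of KRT8 also without DMSO replicate 1 (0.0517). KRT18 had 71.6 and 66.2 RPKM with G007-LK, against 76.3 and 76.2 RPKM with DMSO, and did not pass the test (-0.15, limma adjusted p 0.261).

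In RKO, 1 of 3 keratins tested changed, where 4.11% of all 10518 genes tested changed, 1.36% higher and 2.75% lower. KRT18 had 68.0 and 69.0 RPKM with G007-LK, against 76.8 and 75.2 RPKM with DMSO, a log2 change of -0.15 ± 0.02 (limma, adjusted p 0.0141). The call was lost without G007-LK replicate 1 (0.0924), G007-LK replicate 2 (0.0708) or DMSO replicate 1 (0.0713). KRT8 had 6.53 and 7.53 RPKM with G007-LK, against 6.38 and 6.83 RPKM with DMSO, and KRT10 had 16.5 and 16.6 RPKM with G007-LK, against 17.3 and 16.6 RPKM with DMSO, both with overlapping groups.

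Whether a sensitive line responded otherwise than RKO was tested as an interaction in limma over the 8 libraries of both lines. The response differed for 7 of 12 keratins of ABC-1, where 46% of all genes tested differed, and for 8 of 16 of OVCAR-4 (33.9%). It differed for 4 of 11 keratins of COLO 320DM (11.8%) and 1 of 9 of UO-31 (6.25%). These 4 comparisons share the RKO libraries. Since KRT6A, KRT16, KRT37 and KRT75 were at 0 in all 4 RKO libraries, their difference equals their own response, and most other members were below 1 RPKM there.

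Only KRT8, KRT10 and KRT18 were above 1 RPKM in RKO as well as in the other lines. Of these, KRT10 differed in ABC-1 (log2 0.37 ± 0.08, limma adjusted p 0.00179) and KRT18 in UO-31 (-0.43 ± 0.08, limma adjusted p 0.0168). The UO-31 call was lost without UO-31 DMSO replicate 1 (0.107) or 2 (0.0706), RKO G007-LK replicate 1 (0.0844) or 2 (0.0986), or RKO DMSO replicate 1 (0.0833) or 2 (0.102). KRT18 differed from RKO by 0.02 in ABC-1 cells, by -0.07 in OVCAR-4 cells and by 0.00169 in COLO 320DM cells, none of which passed the test. KRT8 missed the threshold in UO-31 (-0.45, limma adjusted p 0.0523) and passed it after rescaling (-0.46, adjusted p 0.0232).

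Genes that work with keratins were counted from fixed lists. Of 12 epithelial transcription factors tested in ABC-1, 9 rose and 1 fell, with a median log2 change of 0.52 against -0.14 over all genes, of which 16.6% rose and 41.2% fell. EHF, an ETS factor of epithelia, averaged 20.7 ± 2.18 RPKM with G007-LK and 9.76 ± 1.44 RPKM with DMSO (SD, n = 2 each). TFAP2C averaged 82.7 ± 4.51 RPKM with G007-LK and 43.6 ± 2.75 RPKM with DMSO, and KLF4, a factor of epidermal barrier formation, 12.5 ± 0.292 RPKM with G007-LK and 7.40 ± 0.531 RPKM with DMSO. OVOL2 was the one that fell (-0.41). TP63 missed the filter, at 0.133 and 0.154 RPKM with G007-LK, against 0.0974 and 0.165 RPKM with DMSO. The same list split into 3 higher and 4 lower of 11 tested in OVCAR-4, where 12.6% of all genes rose and 39% fell. A single factor of 3 tested fell in UO-31 (KLF5, where 8.63% of all genes fell) and likewise in COLO 320DM (TFAP2C, 11.6% of all genes), and RKO had none of 3 past the threshold by limma (4.11% of all genes).

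The cornified envelope list, small proteins and enzymes of the hardened epidermal surface, had 2 of 9 members above the filter in ABC-1, and both rose, where 16.6% of all genes did. SPRR1B passed the filter only through its G007-LK libraries, so this count depends on the filter and is not read as a result about the list. TGM1, which missed the filter, had 0.389 and 0.311 RPKM with G007-LK, against 1.3 and 1.5 RPKM with DMSO, and the others were below 0.25 RPKM in each ABC-1 library or not in the table. SPRR1B averaged 3.05 ± 0.0246 RPKM with G007-LK and 0.677 ± 0.0133 RPKM with DMSO, and SPRR3 averaged 53.0 ± 3.65 RPKM with G007-LK and 19.6 ± 0.611 RPKM with DMSO (SD, n = 2 each). UO-31 had 1 member tested, which did not pass, and the other lines had none.

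Desmosomes anchor keratin filaments at cell contacts. Their genes changed in both directions, and the limma calls over all genes, beside which the counts of these lists are to be read, came to 57.9% for ABC-1, 51.5% for OVCAR-4, 19.3% for COLO 320DM, 13.4% for UO-31 and 4.11% for RKO. ABC-1 had 3 higher and 3 lower of 8 tested, OVCAR-4 had 3 higher and 4 lower of 9, UO-31 had 1 higher and 2 lower of 9, COLO 320DM had 2 higher and 1 lower of 8, and none of 5 passed the test for RKO. After rescaling, which raised the share of all genes called to 38.8% for COLO 320DM, 30.7% for UO-31 and 63.3% for ABC-1 and lowered it to 47.4% for OVCAR-4, COLO 320DM had 2 higher and 5 lower desmosome genes, UO-31 had 3 higher and 2 lower, ABC-1 had 4 higher and 3 lower and OVCAR-4 had 3 higher and 3 lower. JUP, encoding plakoglobin, was higher in all 4 sensitive lines, with log2 changes that were largest in COLO 320DM (0.97) and UO-31 (0.74) and smaller for ABC-1 (0.56) and OVCAR-4 (0.30). PKP4 was lower in the same 4 lines, with log2 changes between -0.83 for ABC-1 and -0.42 for OVCAR-4. Of plakins and hemidesmosome genes ABC-1 had 3 higher and 3 lower of 8, OVCAR-4 had 2 higher and 2 lower of 8, COLO 320DM had 1 lower of 5, and none passed of 7 for UO-31 and of 5 for RKO. After rescaling OVCAR-4 had 4 higher and 1 lower, COLO 320DM had 2 higher (DST and PLEC) and 1 lower, UO-31 had 2 higher (ITGB4 and PPL), and ABC-1 was at 3 and 3.

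Among the other intermediate filament genes, VIM, the filament of mesenchymal cells, rose in 3 lines. It averaged 2264 ± 189.5 RPKM in UO-31 with G007-LK and 1926 ± 1.23 RPKM with DMSO, a log2 change of 0.23 that was 0.24 with an adjusted p of 0.154 by limma after rescaling. It averaged 82.3 ± 2.24 RPKM in OVCAR-4 with G007-LK and 44.9 ± 0.0768 RPKM with DMSO, and 710 ± 12.4 RPKM in COLO 320DM with G007-LK and 560 ± 28.2 RPKM with DMSO (SD, n = 2 each). CDH2 and FN1, the other mesenchymal markers above 1 RPKM in OVCAR-4, lay lower there. CDH2 had 3.24 and 3.68 RPKM with G007-LK, against 6.04 and 6.10 RPKM with DMSO, and FN1 had 7.42 and 7.63 RPKM, against 9.42 and 9.66 RPKM. Of the listed filament genes, LMNB2 was lower in every sensitive line (log2 change -0.34 in COLO 320DM, -0.84 in UO-31, -0.43 in OVCAR-4, -0.84 in ABC-1). The largest rises were those of BFSP1 in UO-31 (1.51) and NES in OVCAR-4 (0.94). Over the whole list OVCAR-4 had 2 higher and 4 lower of 8, UO-31 had 2 higher and 2 lower of 8, ABC-1 had 2 higher and 2 lower of 6, COLO 320DM had 1 higher and 2 lower of 7, and none of 5 passed for RKO, against the same shares of all genes. After rescaling OVCAR-4 and UO-31 had 3 higher each, with 3 and 2 lower, and COLO 320DM had 2 higher and 4 lower.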

How the data were processed

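Polyadenylated RNA of 5 cell lines, taken 24 h after addition of G007-LK (1 µM) or vehicle (DMSO, 0.01%), was sequenced on an Illumina HiSeq instrument, with 2 libraries per group and groups taken from GEO's labels. According to the study's methods, the authors aligned reads with SOAPaligner/SOAP2 to reference genes and genome (hg19) with at most 2 mismatches and deposited RPKM values, with genes without RNA left blank and read here as 0. Whether counting used strand was not given in the sources used here. Tables with the authors' own log2 ratios and probabilities were not used.

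The table had 21610 entries, from which 8 lacking a symbol were dropped, and 371 symbols on several entries were joined. No column of another series was found. Responses were fitted per line with limma 3.58.1 in R 4.3.3 (trend and robust variance) on log2(RPKM + 0.5), for genes of mean RPKM 1 or more, with Benjamini-Hochberg adjustment over all genes and a threshold of 0.05. Interactions used the 8 libraries of a line and RKO, and levels the 10 DMSO libraries. The code was tested on simulated data. Depth is known only relative to other libraries, and read numbers were taken from the spacing of RPKM values, so the data give no count test. A read number was accepted within 0.02 of a whole read, or within 0.0002 times its size where that is larger. Positions are from GENCODE on GRCh37, promoters from RefSeq on GRCh38.p14 and transcript identities from blastn 2.17.0.

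Named keratins were the 5 highest with DMSO in each line and up to 8 called per line or per difference from RKO, and up to 3 called genes per list and line. The members and lists were chosen with earlier results of these data known. Alternatives were the pseudocount, the filter, median ratio rescaling, a replicate block, a fit of all 20 libraries and leaving out each library. The labels call the replicates biological, but nothing says that they came from separate days, so p-values measure the spread between these samples. Replicate numbers did not pair the samples. A second look at the keratins without KRT8 and KRT18 was made for sums and ratios.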

Additional observations from a re-analysis of the deposited data

Results flagged for a closer look

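The following responses to G007-LK differed from those of RKO by a test of the interaction in limma, at an adjusted p under 0.05, and values are the response in the line minus that in RKO on the log2(RPKM + 0.5) scale. In ABC-1, KRT15 (2.19), KRT13 (1.69), KRT6A (1.39), KRT7 (0.44) and KRT10 (0.37) were above RKO, and KRT4 (-0.77) and KRT17 (-0.56) below it. In OVCAR-4, KRT5 (0.93), KRT16 (0.73), KRT81 (0.73), KRT75 (0.70), KRT15 (0.49) and KRT17 (0.46) were above RKO, and KRT80 (-0.57) and KRT13 (-0.55) below it. In COLO 320DM, KRT20 (0.72) was above RKO, and KRT81 (-1.13), KRT37 (-1.09) and KRT39 (-0.78) were below it. In UO-31, KRT18 (-0.43) was below RKO. Apart from KRT10 and KRT18, the keratins named here were below 1 RPKM in RKO. Their difference from RKO thus largely restates the response of the line itself.

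KRT13 and KRT17 appear in both ABC-1 and OVCAR-4 with opposite signs. The difference between ABC-1 and OVCAR-4 itself was not tested. With a library left out, some of these calls missed the threshold in limma. The adjusted p then was 0.0538 to 0.144 for KRT15 in OVCAR-4 (each library but OVCAR-4 G007-LK replicate 2 and DMSO replicate 2). It was 0.0515 to 0.0567 for KRT16 in OVCAR-4 (OVCAR-4 G007-LK replicate 1 or any RKO library). It was 0.0624 to 0.104 for KRT7 in ABC-1 (ABC-1 DMSO replicate 2, RKO G007-LK replicate 1 or RKO DMSO replicate 1). It was 0.0529 to 0.0621 for KRT39 (RKO G007-LK replicate 2 or either RKO DMSO library) and 0.0551 for KRT20 (RKO DMSO replicate 1) in COLO 320DM, and 0.0706 to 0.107 for KRT18 in UO-31 (either UO-31 DMSO library or any RKO library). No group held enough libraries for a test of single outlying samples.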

How the results depend on the processing

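The count of changed keratins stayed within 1.5 times in OVCAR-4 and ABC-1 under every alternative run. In COLO 320DM it was 5, and became 1 with a mean RPKM of at least 5 (3 keratins tested), 3 with the replicate block and 2 to 4 with a library left out. In UO-31 it was 3, and 2 to 5 with a library left out. In RKO it was 1, and 0 without a filter, with the replicate block or in 1 fit over all 20 libraries, and 0 to 1 with a library left out. For differences from RKO, COLO 320DM had 4, 0 with a mean of at least 5 and 2 to 4 with a library left out. UO-31 had 1, 2 with a pseudocount of 1, with a mean of at least 5, with rescaling or with the replicate block, and 0 to 3 with a library left out. Of 49 keratins tested without a filter, 40 differed among the lines. The share of all genes called was not computed for that fit. Of the other alternatives, only rescaling within a line has it, so the counts in this paragraph are not read as results about keratins. The cause of these shifts was not tested, beyond the fewer genes or samples that an alternative itself leaves.

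Some signs turned: KRT80 (0.12, against -0.23 without G007-LK replicate 1) and KRT7 (-0.04) in UO-31 without G007-LK replicate 2, KRT7 there without DMSO replicate 2 (-0.095), KRT18 in ABC-1 after rescaling (0.00063) and KRT8 in RKO without G007-LK replicate 2 (-0.014, against 0.18 without replicate 1). Without KRT8 and KRT18 the log2 change of the keratin sum in COLO 320DM was -0.17, and that of the type I to type II ratio was 1.01 in COLO 320DM and 0.044 in RKO. Over single keratins, 603 alternative values kept direction and side of the threshold, 67 lost the call, 3 gained it and 5 turned.

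Same-numbered libraries deviated together with r of -0.254 in COLO 320DM, -0.0208 in UO-31, 0.00512 in OVCAR-4, -0.254 in ABC-1 and 0.0551 in RKO, so the numbers were not taken as pairs. With a replicate block 14 keratins changed in OVCAR-4, 10 in ABC-1 and 3 in UO-31. Crossing the pairing, an alternative chosen after seeing the data, gave 7 in COLO 320DM and 11 in ABC-1. The block and crossed counts also stand without the share of all genes called, which was not computed. With 2 libraries per group and no read totals, keratins below 1 RPKM are limited by counting error.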

Other observations

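Several keratins below the filter had clear read numbers, and these were picked after their values were seen. The adjusted p is that of limma without a filter. In OVCAR-4, KRT14, the basal partner of KRT5, had 21 and 18 reads with G007-LK, against 6 and 7 reads with DMSO (0.00593), and KRT78 had 20 and 24 reads with G007-LK, against 10 and 10 reads with DMSO (0.0209). The KRT14 transcript shares 89.46% of bases over 996 bases with that of KRT17 and 89.16% over 1356 bases with that of KRT16. Whether reads of these genes were counted for KRT14 was not tested. In UO-31, KRT16 had 27 and 25 reads with G007-LK, against 16 and 17 reads with DMSO (0.266), and KRT83 had 26 and 29 reads with G007-LK, against 16 and 19 reads with DMSO (0.248). In ABC-1, KRT86 had 12 and 13 reads with G007-LK, against 25 and 20 reads with DMSO (0.0155), and KRT1, a keratin of suprabasal epidermis, had 23 and 12 reads with G007-LK, against 10 and 3 reads with DMSO (0.111). In RKO, KRT79, the highest keratin after KRT18, KRT10 and KRT8, had 41 and 41 reads with G007-LK, against 46 and 38 reads with DMSO (0.999). Libraries of a line differed in depth by up to 1.11 times above and 0.855 times below the first DMSO library of their line.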
